A study of Homo sapiens with 32 samples.

Results

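The early transcriptional response of LNCaP cells to neuregulin 1 (NRG-1) was examined in 8 of the 32 RNA-Seq libraries of the study. LNCaP is an androgen-sensitive human cell line established from prostate cancer that had spread to a lymph node. The members were chosen by their labels: 4 libraries came from cells in medium with 10% charcoal-stripped serum (CSS) that received NRG-1 at 100 ng/mL for 1 hour, and 4 came from cells in CSS with no growth factor. All 8 therefore share the removal of most steroid hormones and lipophilic factors from the serum, which began on the day before treatment. The comparison asks which transcripts change when HER3 is engaged by its ligand. The libraries with NRG-1 for 5 minutes or 4 hours and with EGF for 1 hour (100 ng/mL, 4 libraries each) were used only to place the 1-hour values. Each group held 2 biological replicates in each of 2 batches. The labels do not say whether these replicates were separate cultures, so *P* values measure the spread between the libraries, part of which may be technical. A single cell line was studied.

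NRG-1 binds HER3 (*ERBB3*) and HER4 (*ERBB4*). HER3 has little kinase activity of its own and signals by pairing with another receptor of the family, most readily HER2 (*ERBB2*), after which its phosphorylated tail recruits PI3K and the pair drives the RAS-ERK cascade. ERK and its downstream kinases act on transcription factors that are already present, among them serum response factor (SRF) with its ternary complex partners and CREB, and thereby switch on immediate early genes within minutes. Many products of these genes, such as dual-specificity phosphatases and Sprouty proteins, dampen the same pathway.

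The expected counts of the 8 libraries summed to between 66903121 and 90465137 per library, and those of the whole series to between 63822654 and 92401724. Expression is given below as CPM (counts relative to the library total) scaled by the TMM method, and values of the 4 libraries of a group are listed in the order batch 1 replicates 1 and 2, then batch 2 replicates 1 and 2. In every group of the series, batch 2 replicate 2 had the lowest TMM factor. Its 10 most abundant genes also took the largest share of counts in each group. In CSS the values were 1.01 against 1.04 and 6.62% against 5.80% to 6.37%. The NRG-1 1-hour library of batch 2 replicate 2 stood apart from the other 3 of its group. Its counts differed from those of its batch mate by a χ2 of 144 per degree of freedom, against 20.0 in batch 1 and at most 39.5 within a batch of CSS, its TMM factor was 0.941 against 1.01 to 1.03 in the other 3, and its 10 most abundant genes took 7.58% of its counts against 6.36% to 6.43%. Of 13 luminal prostate markers, 12 exceeded 10 TPM, a measure that also corrects for transcript length, in all 8 libraries, and their summed level spanned 3830 to 4440 TPM in CSS and 3820 to 4480 TPM with NRG-1. All 5 basal markers were below 1 TPM in all 8 libraries, as were 5 of 7 fibroblast, 5 of 6 leukocyte, and 3 of 4 endothelial markers, with *COL1A2* at 0 throughout. Summed over each list, the fibroblast markers reached 4.05 to 5.01 TPM in CSS and 3.10 to 5.14 TPM with NRG-1, the leukocyte markers 3.33 to 4.13 and 2.92 to 4.26 TPM, and the endothelial markers 1.80 to 2.55 and 1.53 to 2.69 TPM, ranges that overlap between the groups. The neuroendocrine markers, 4 of 6 of which were below 1 TPM, summed to 20.0 to 33.4 TPM in CSS and 17.5 to 32.8 TPM with NRG-1. In such bulk libraries fewer cells of a type and less RNA per cell cannot be told apart.

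The receptors needed to read NRG-1 were unequally expressed. On the TPM scale, which allows levels of different genes to be compared, *ERBB2* reached 98.1 ± 16.6 TPM (mean ± SD, *n* = 4 in CSS) and *ERBB3* 73.9 ± 7.18 TPM. *EGFR* stood at 9.63 ± 2.23 TPM. *ERBB4*, the other receptor for NRG-1, reached 0.0200 ± 0.00816 TPM, with at most 16 counts in any CSS library. None of these receptor transcripts passed the test after 1 hour of NRG-1: in CPM, *ERBB3* was 196, 216, 239.7, and 221 in CSS and 194, 186, 228, and 177 with NRG-1, ranges that overlap (log2 fold change -0.15 ± 0.10, edgeR adjusted *P* = 0.494), and the adjusted *P* values were 0.893 for *ERBB2*, 0.527 for *EGFR*, and 0.583 for *ERBB4*. The transcript of the ligand itself, *NRG1*, had no more than 1 count in each of the 8 libraries.

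After 1 hour of NRG-1, 168 of 16995 genes tested were differentially expressed genes (DEGs), defined as a Benjamini-Hochberg adjusted *P* value below 0.05 in edgeR's quasi-likelihood test together with a change of more than 1 up or down on the log2 scale. That is 0.989% of the genes tested. Transcripts mostly went up: 137 DEGs were higher (0.806%) and 31 were lower (0.182%). Without the fold limit, 1144 genes passed (6.73%), of which 756 rose (4.45%) and 388 fell (2.28%). Members of the gene lists below are counted by this rule, so these shares are the background for each list. The shares that passed were near 6.73% for ephrins and Eph receptors (7.69%) and androgen-responsive genes (10%). They were 11.1% for glucose uptake and glycolysis and also for the urokinase system and ADAMTS proteases. The median log2 fold change over all genes was -0.0045. Of the 137 higher DEGs, 136 were higher in all 4 pairs of libraries with the same batch and replicate number, and for 133 every NRG-1 library exceeded every CSS library. Of the 31 lower DEGs, 31 were lower in all 4 pairs and 27 did not overlap. Over all genes tested, 4.98% had NRG-1 libraries entirely above the CSS libraries and 3.81% entirely below. Low levels in CSS were common in both directions: 63 of the 137 higher DEGs averaged under 1 CPM in CSS, as did 19 of the 31 lower DEGs. The share over all genes tested is not given here. Of the higher DEGs, 16 had no more than 3 counts in any CSS library. Among the other 121, 50 lay beyond a log2 fold change of 2 and 7 beyond 5, and the median size was 1.70, against 2 and 0 of the 31 lower DEGs with a median size of 1.26. Without the NRG-1 library of batch 2 replicate 2, 136 genes were called higher and 20 lower, and the lower count ranged up to 40 when other libraries were left out.

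**Figure D1:**
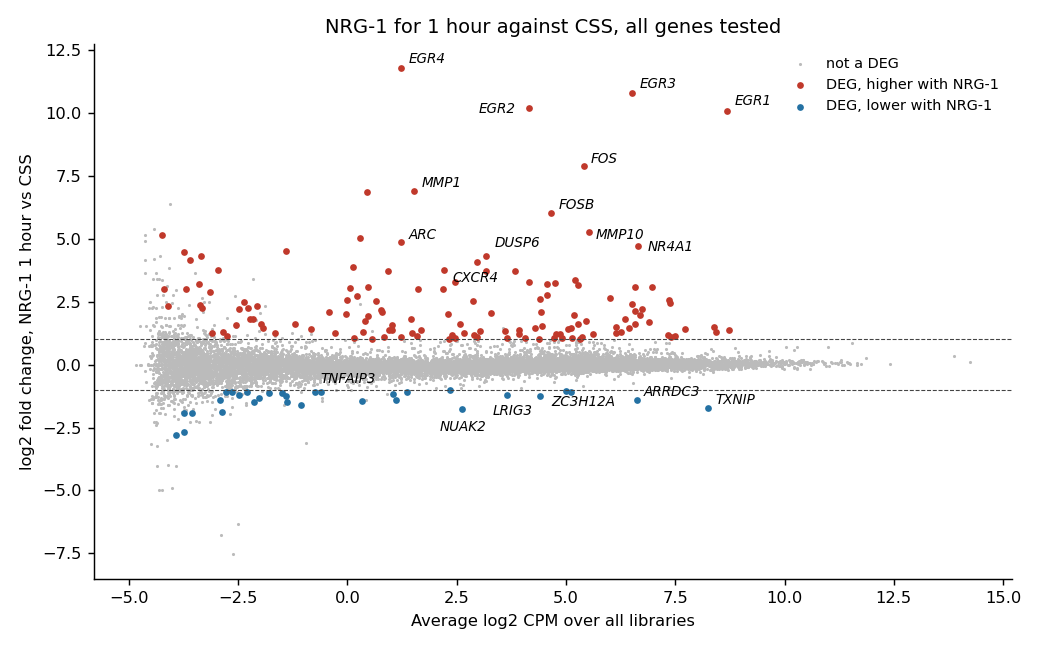
The log2 fold change of NRG-1 for 1 hour against CSS (vertical axis) is plotted for each of 16995 genes against its average log2 CPM (horizontal axis), with 137 higher DEGs in red, 31 lower DEGs in blue, and the fold limit of 1 dashed. The 4 *EGR* genes are plotted above 10 on the log2 scale, although *EGR4* had no count in CSS and its rise is bounded only at 151-fold or more. The lower DEGs labelled lie between -1 and -2, and 2 of the 31 lower DEGs lie beyond -2.

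The EGR transcription factors, zinc finger proteins that are among the first genes transcribed after ERK activation, had the largest estimated log2 fold changes of the genes named here. All 6 listed members tested, that is 4 EGR factors and the NAB corepressors that bind them and restrain them, passed the test and went up, with a median log2 fold change of 10.14. *EGR1* was barely detectable in CSS, at 1.16, 1.37, 1.21, and 1.29 CPM, and stood at 1626, 1477, 1272, and 1033 CPM with NRG-1, so that every treated library was far above every control (log2 fold change 10.07 ± 0.46, edgeR adjusted *P* = 4.24e-16). *EGR3* went from 0.133, 0.201, 0.111, and 0.0607 CPM to 257, 233, 198, and 181 CPM (10.79 ± 0.19, adjusted *P* = 5.1e-26). *EGR2* went from 0.0363, 0.0573, 0.0111, and 0.0364 CPM to 64.0, 60.1, 25.5, and 23.2 CPM, and its NRG-1 libraries of batch 1 lay above those of batch 2 (10.20 ± 0.37, adjusted *P* = 2.24e-18). *EGR4* had no count in any CSS library and 7.75, 6.38, 4.69, and 3.63 CPM with NRG-1. Set against a floor of 3 counts per library, *EGR4* was at least 151-fold higher. With *EGR4* at that bound, the list's median was 8.65. The floor averaged 0.0372 CPM in CSS, and *EGR2* lay near it there, so the size of its rise is uncertain as well. *NAB2*, a corepressor that EGR factors themselves induce, followed at a smaller scale (3.25 ± 0.17, 5.89 ± 0.687 to 56.1 ± 12.1 CPM, SD, *n* = 4), and *NAB1* changed least of the list (0.54 ± 0.13).

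The promoters of *EGR1*, *EGR2*, *SRF*, and *FOS* are shown as examples picked by name from the higher DEGs. Where RefSeq gives a gene several promoters, the one with the most CArG boxes, defined below, was printed. The windows printed carry sites of the kinds bound by SRF, by CREB, or by both. Given this choice, their presence in these windows is an illustration and not a result. Each run is the 250 bases before the RefSeq transcription start (GRCh38.p14, 5′ to 3′ on the gene's strand). Capitals mark the CArG box, to which SRF binds (CC, 6 bases that are A or T, GG), and the core CRE of CREB and related factors (TGACG, either strand).
*EGR1*, chr5:138465229-138465478, plus strand: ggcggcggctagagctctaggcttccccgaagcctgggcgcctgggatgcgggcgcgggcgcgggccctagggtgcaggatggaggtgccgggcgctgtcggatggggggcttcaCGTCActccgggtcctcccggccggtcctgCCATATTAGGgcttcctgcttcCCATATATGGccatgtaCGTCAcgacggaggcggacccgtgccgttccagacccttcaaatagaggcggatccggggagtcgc
*EGR2*, chr10:62816367-62816616, minus strand: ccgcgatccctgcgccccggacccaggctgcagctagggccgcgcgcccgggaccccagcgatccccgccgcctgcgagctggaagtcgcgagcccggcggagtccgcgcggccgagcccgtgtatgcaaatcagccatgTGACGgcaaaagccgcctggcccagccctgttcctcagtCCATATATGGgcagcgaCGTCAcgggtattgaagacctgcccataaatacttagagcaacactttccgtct
*SRF*, chr6:43171019-43171268, plus strand: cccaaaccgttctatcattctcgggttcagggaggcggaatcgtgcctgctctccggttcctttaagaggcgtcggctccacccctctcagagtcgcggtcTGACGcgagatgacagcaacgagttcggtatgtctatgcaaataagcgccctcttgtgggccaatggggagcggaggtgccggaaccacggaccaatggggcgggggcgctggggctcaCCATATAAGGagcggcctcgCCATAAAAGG
*FOS*, chr14:75278578-75278827, plus strand: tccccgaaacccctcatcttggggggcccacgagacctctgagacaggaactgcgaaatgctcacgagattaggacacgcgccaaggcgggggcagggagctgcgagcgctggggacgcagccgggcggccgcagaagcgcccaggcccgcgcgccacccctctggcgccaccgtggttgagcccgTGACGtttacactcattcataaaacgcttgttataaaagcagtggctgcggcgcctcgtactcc
*EGR1* holds 2 CArG boxes, 105 to 96 and 83 to 74 bases before the start, and *SRF* holds 2, the nearer ending 1 base before the start. *EGR2* has 1, at 71 to 62 bases, followed by a core CRE at 54 to 50 bases. The window of *FOS* holds a core CRE at 64 to 60 bases and no CArG box by these letters. Bases further upstream were not searched. Among 134 RefSeq promoters, of 300 bases from 250 before to 50 after the start, that matched 98 of the 137 higher DEGs, 14 (10.4%) held a CArG box on either strand. The share was 1.18% of 18484 promoters of genes tested and 1.29% of all 35116 promoters, and 0 of 33 promoters of lower DEGs held one. Besides *EGR1*, *EGR2*, and *SRF*, the 12 genes were *CXCR4*, *FHL2*, *GBP1*, *GPR183*, *ACTA1*, *MYADM*, *TPM4*, *ELMSAN1*, and *CNN2*. Other motifs differed less: the core CRE, TGACG, was in 38.1% of the higher, 24.2% of the lower, and 30.4% of all tested promoters, the full CRE TGACGTCA (which contains the core) in 5.97%, 0%, and 2.52%, the EGR site GCGNGGGCG in 19.4%, 12.1%, and 13.8%, and the AP-1 site TGANTCA in 7.46%, 3.03%, and 5.63%. These shares describe letters in a window and not binding, and they were not tested. The genes were also compact, with a median genomic span in RefSeq of 9.09 kb for higher and 9.13 kb for lower DEGs against 27.9 kb for all genes tested.

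AP-1 is a dimer of FOS, JUN, ATF, and MAF family proteins. Of 12 AP-1 subunits tested, 10 rose and 2 did not pass, with a median log2 fold change of 1.77. *FOS* climbed from 0.665, 0.587, 0.531, and 0.692 CPM to 148, 143, 150.4, and 137 CPM, with little spread among the treated libraries (log2 fold change 7.88 ± 0.36, edgeR adjusted *P* = 4.24e-16). *FOSB* reached 56.6, 55.5, 45.4, and 39.5 CPM from 0.581, 0.544, 1.13, and 0.692 CPM, higher in batch 1 than in batch 2 (6.03 ± 0.24, adjusted *P* = 1.04e-17). *FOSL1*, the FRA-1 subunit, rose by 5.02 ± 0.25 from 0.0866 ± 0.0114 to 2.83 ± 0.313 CPM (SD, *n* = 4). The partners did not move as one. *JUNB* rose by 3.07 ± 0.13 to 239.5 ± 8.73 CPM, *ATF3* by 2.56 ± 0.17 to 326 ± 42.1 CPM, and *MAFF* by 3.73 ± 0.10, whereas *JUN* was 115 ± 29.7 CPM in CSS and 105 ± 17.2 CPM with NRG-1 (-0.11 ± 0.10, adjusted *P* = 0.661) and did not pass. *JUND* rose by 0.60 ± 0.06.

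The 3 NR4A orphan nuclear receptors, which act without a known hormone and are regulated mainly through their own transcription, all rose. *NR4A1* (NUR77) was 8.48, 8.75, 8.97, and 8.26 CPM in CSS and 256, 248, 208, and 193 CPM with NRG-1 (log2 fold change 4.71 ± 0.11, edgeR adjusted *P* = 8.05e-23). *NR4A3* went from 0.169, 0.0859, 0.199, and 0.109 to 2.08, 1.87, 2.24, and 2.37 CPM (3.88 ± 0.20, adjusted *P* = 7.76e-15). *NR4A2* changed least, from 0.835, 0.730, 1.13, and 1.04 to 1.93, 2.16, 1.78, and 1.89 CPM, although its libraries still did not overlap (1.04 ± 0.15, adjusted *P* = 1.37e-05).

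Other transcription factors followed in part. *SRF* itself rose from 53.5, 57.8, 58.5, and 52.9 CPM to 181, 172, 185, and 144 CPM (log2 fold change 1.61 ± 0.09, edgeR adjusted *P* = 5.33e-14). Of its 5 listed cofactors only *ELK1* passed (0.26 ± 0.05), and *ELK3*, *ELK4*, *MKL1*, and *MKL2* did not. Of 13 Kruppel-like factors tested, 7 rose and 6 did not pass. *KLF10*, a factor also induced by TGF-β, went from 36.0, 37.5, 36.3, and 38.9 CPM to 296, 264, 327, and 355 CPM (3.06 ± 0.09, adjusted *P* = 1.03e-20), *KLF4* rose by 2.03 ± 0.09, and *KLF6* by 1.23 ± 0.11, with its batch 2 libraries at 49.6 and 56.1 CPM and those of batch 1 at 32.5 and 31.0 CPM. Among 6 ETS factors linked to ERK, the repressor *ERF* (0.82 ± 0.06) and *ETS2* (0.78 ± 0.08) rose, and the PEA3 members *ETV1*, *ETV4*, and *ETV5* did not pass at this time, with adjusted *P* values of 0.877, 0.478, and 0.417. *MYC* was 254, 264, 256, and 256 CPM in CSS and 281, 272, 279, and 262 CPM with NRG-1, overlapping levels (0.09 ± 0.05, adjusted *P* = 0.435). Of the 11 members of the MYC network tested, the MYC antagonists *MXD1* (1.00 ± 0.07) and *MNT* (0.64 ± 0.12) rose and *MYCL* fell by 0.33 ± 0.08 on the log2 scale.

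Of 7 ID proteins, inhibitory SMADs, and SKIL, 4 rose and 2 fell. *ID1*, a partner that keeps basic helix-loop-helix factors off DNA, went from 7.92, 4.47, 14.1, and 12.4 CPM to 22.0, 41.8, 44.5, and 53.8 CPM, with wide spread within both groups but no overlap (log2 fold change 2.10 ± 0.19, edgeR adjusted *P* = 2.17e-09). *ID2* rose by 1.46 ± 0.10 and *ID3* by 0.69 ± 0.17. The inhibitory SMADs fell, with *SMAD7* down from 10.7, 10.1, 11.2, and 9.70 to 4.67, 5.48, 7.36, and 5.44 CPM (-0.86 ± 0.13, adjusted *P* = 2.02e-05) and *SMAD6* at -0.49 ± 0.13, whereas *SKIL*, another inhibitor of SMAD signaling, rose by 0.67 ± 0.05. Only 1 of the 2 falls remained when either the CSS library of batch 2 replicate 1 or the NRG-1 library of batch 2 replicate 2 was left out. Among 15 circadian clock genes, 3 rose, namely *PER1* (1.37 ± 0.13), *PER2* (0.68 ± 0.10), and *NR1D1* (0.68 ± 0.09), and 12 did not pass.

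**Figure D2:**
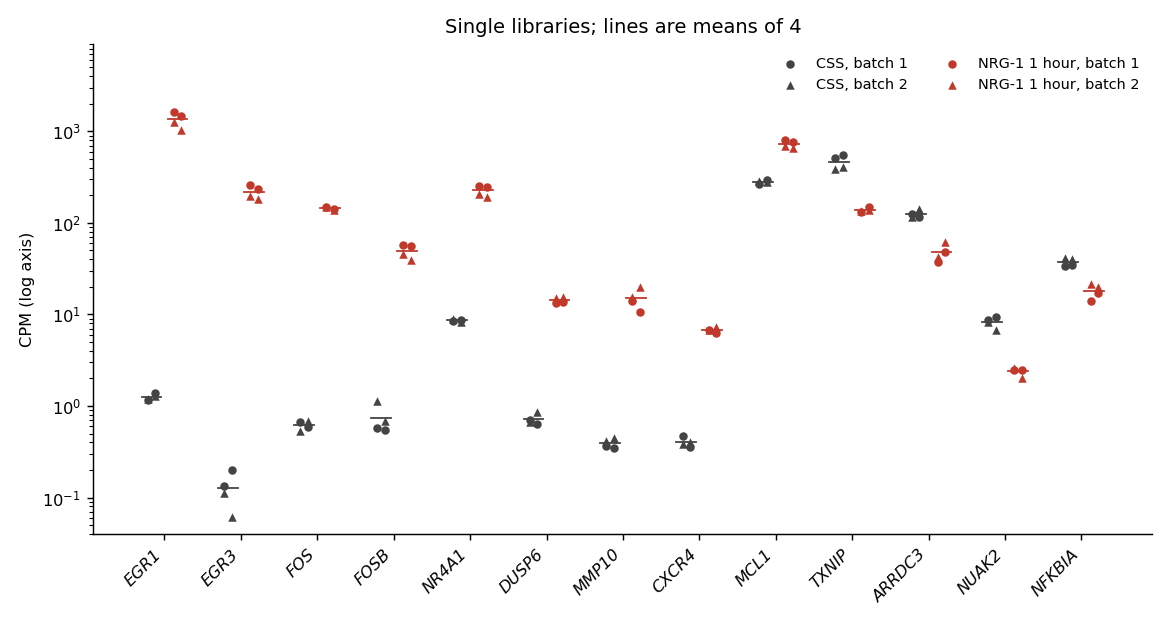
CPM on a log axis is plotted for 13 genes in each of the 4 CSS libraries (grey) and 4 NRG-1 1 hour libraries (red), with circles for batch 1, triangles for batch 2, and a line at each mean. The 13 genes were picked from the DEGs of these same libraries, so the separation of the groups is largely set by that choice. It runs from *EGR1* (1.16 to 1.37 CPM against 1033 to 1626 CPM) to *NFKBIA* (34.0 to 40.9 CPM against 13.9 to 21.3 CPM).

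Feedback inhibitors of the pathway rose as well. Of 12 dual-specificity phosphatases, which remove phosphate from MAP kinases, 9 rose, and the other 3 did not pass. The cytoplasmic ERK phosphatase *DUSP6* went from 0.702, 0.630, 0.675, and 0.862 CPM to 13.4, 13.7, 15.1, and 15.7 CPM (log2 fold change 4.33 ± 0.14, edgeR adjusted *P* = 1.08e-19). The nuclear phosphatase *DUSP5* went from 2.32, 2.09, 2.00, and 2.30 to 29.5, 30.3, 29.0, and 26.8 CPM (3.73 ± 0.09, adjusted *P* = 8.05e-23), and *DUSP2* reached 50.9 ± 7.71 CPM (2.76 ± 0.14). *DUSP1*, which acts on several MAP kinases, rose by only 0.48 ± 0.09, from 18.9 ± 0.748 to 26.4 ± 1.75 CPM.

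The Sprouty and Spred proteins, which block RAS-ERK signaling below receptors, divided by member: 4 of 7 rose and 2 fell. *SPRY2* went from 1.52, 1.42, 1.32, and 1.46 CPM to 15.2, 11.6, 14.3, and 13.7 CPM (log2 fold change 3.26 ± 0.10, edgeR adjusted *P* = 2.4e-20) and *SPRY4* from 0.206, 0.172, 0.376, and 0.255 to 1.96, 2.42, 2.21, and 2.11 CPM (3.08 ± 0.21, adjusted *P* = 3.24e-12). *SPRED2* (0.90 ± 0.11) and *SPRED1* (0.46 ± 0.09) rose less. *SPRY1* (-0.75 ± 0.12) and *SPRY3* (-0.55 ± 0.11) fell.

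Inhibitors that act on the ERBB receptors themselves were also divided, with 2 of 15 listed receptors and inhibitors up and 3 down. *ERRFI1* (MIG6), which binds the kinase domains of EGFR and HER2, rose from 37.0, 34.2, 33.2, and 34.9 CPM to 99.3, 87.2, 97.1, and 102 CPM (log2 fold change 1.47 ± 0.08, edgeR adjusted *P* = 4.94e-15). *RNF41*, a ubiquitin ligase that lowers HER3, rose slightly (0.29 ± 0.06). The membrane protein *LRIG3* fell from 18.6, 18.8, 17.2, and 16.8 to 8.13, 7.83, 7.91, and 6.99 CPM, and no treated library reached the lowest control (-1.21 ± 0.06, adjusted *P* = 4.94e-15). *SOCS5* (-0.22 ± 0.05) and *SOCS6* (-0.15 ± 0.04) fell by small amounts.

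NRG-1 raised transcripts of other ligands of the same receptor family. Of 8 EGF family ligands tested, 2 rose, both of which bind EGFR. *HBEGF* went from 6.58, 6.40, 5.20, and 5.40 CPM to 34.2, 35.7, 37.9, and 34.8 CPM (log2 fold change 2.61 ± 0.08, edgeR adjusted *P* = 3.52e-20). *AREG* went from 0.157, 0.401, 0.210, and 0.292 to 1.28, 1.31, 1.70, and 1.76 CPM (2.56 ± 0.26, adjusted *P* = 1.96e-08). *EGF*, *TGFA*, *BTC*, *NRG2*, *NRG3*, and *NRG4* did not pass, at adjusted *P* values of 0.512, 0.899, 0.823, 0.831, 1, and 0.965. *NRG3* differed between batches rather than between groups, at 22.7, 22.6, 11.7, and 10.5 CPM in CSS and 22.8, 22.4, 11.7, and 10.6 CPM with NRG-1.

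Regulators of mRNA stability and other small early genes rose as well. *ZFP36* (tristetraprolin), which binds AU-rich elements and marks mRNAs for decay, went from 9.04, 8.92, 9.18, and 8.49 CPM to 109, 90.0, 89.9, and 72.8 CPM (log2 fold change 3.34 ± 0.11, edgeR adjusted *P* = 2.24e-19). In all, 5 of 8 mRNA decay and antiproliferative factors rose, and *BTG2* fell (-0.60 ± 0.07, adjusted *P* = 3.17e-07). Of 7 *IER* and *PHLDA* genes, 5 rose, led by *PHLDA2* (2.45 ± 0.15, to 107 ± 18.8 CPM) and *IER2* (2.22 ± 0.10, to 219 ± 31.1 CPM). *PHLDA1* (2.02 ± 0.22) was the 1 gene of 16995 (0.00588%) called for a response that differed between batches: its CSS levels were 2.87 and 2.91 CPM in batch 1 and 1.16 and 1.21 CPM in batch 2, its NRG-1 levels were 6.82, 7.32, 7.78, and 7.69 CPM, and the log2 fold change was 1.41 larger in batch 2 (interaction term in edgeR, adjusted *P* = 4.17e-05). At an unadjusted *P* below 0.05, 299 genes (among 16995) had such an interaction, a share under the 0.05 that chance alone would give. With 2 libraries per group and batch, genes without a call may still differ in response between batches.

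Secreted proteases and their inhibitors rose from very low levels. Of 11 metalloproteinases and TIMPs tested, 6 rose and 5 did not pass. *MMP10* (stromelysin 2) went from 0.363, 0.344, 0.409, and 0.449 CPM to 13.9, 10.7, 15.6, and 19.7 CPM (log2 fold change 5.26 ± 0.30, edgeR adjusted *P* = 5.49e-14). *MMP1*, the interstitial collagenase, had 0 or 1 counts per CSS library and 0.675, 0.589, 1.12, and 1.23 CPM with NRG-1, at least 24.3-fold above the floor of 3 counts (adjusted *P* = 1.98e-07). *TIMP3* (2.53 ± 0.24), *MMP7* (1.24 ± 0.19), and *MMP13* (1.12 ± 0.29) also rose, whereas *MMP3*, although called, had only 1 to 4 counts per NRG-1 library and none in CSS, and its call was lost in each fit that left out 1 library, other than the NRG-1 library of batch 1 replicate 1. The list's median log2 fold change of 1.24 rested on such genes, and it was 0.0748 when the 3 members at the floor in CSS were set to their bounds. By contrast, of 9 genes of the urokinase system and the ADAMTS proteases only the abundant *ADAMTS1* rose, from 861, 880.1, 803, and 735 CPM to 1498, 1392, 1310.0, and 1105 CPM (0.69 ± 0.10, adjusted *P* = 7.04e-06). *PLAU* and *PLAUR* did not pass.

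Genes of chemokine and NF-κB signaling went in both directions. *CXCR4*, the receptor for CXCL12 and a gene outside the lists, rose from 0.472, 0.358, 0.387, and 0.401 CPM to 6.68, 6.25, 6.80, and 7.31 CPM (log2 fold change 4.06 ± 0.19, edgeR adjusted *P* = 4.07e-16). *CXCL8* (interleukin 8) had at most 2 counts per CSS library and 0.384, 0.353, 0.489, and 0.881 CPM with NRG-1, at least 14.2-fold above the floor (adjusted *P* = 7.52e-07). Of 15 NF-κB feedback genes and cytokines tested, 3 rose, namely *CXCL8*, *RELB* (0.52 ± 0.16), and *NFKBIE* (0.36 ± 0.07), and 3 fell. The falls were in inhibitors of NF-κB and of cell death: *NFKBIA* (IκBα) went from 34.0, 35.0, 40.9, and 40.7 to 13.9, 17.3, 21.3, and 20.0 CPM (-1.06 ± 0.09, adjusted *P* = 7.67e-10), *TNFAIP3* (A20) from 2.82, 2.96, 2.19, and 1.71 to 1.14, 0.968, 1.12, and 0.975 CPM (-1.17 ± 0.15, adjusted *P* = 1.26e-06), and *BIRC3* changed by -0.54 ± 0.12. *ZC3H12A* (regnase-1), an endonuclease that degrades inflammatory mRNAs, fell with them, from 32.1, 27.4, 27.0, and 23.0 to 11.4, 11.2, 12.7, and 10.9 CPM (-1.23 ± 0.10, adjusted *P* = 7.75e-11).

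Genes of the actin cytoskeleton that are targets of SRF or YAP rose in 11 of 22 members tested, and 1 fell. The matricellular genes led. *CYR61* went from 8.62, 8.87, 7.51, and 8.48 CPM to 59.0, 72.4, 73.1, and 90.7 CPM (log2 fold change 3.15 ± 0.13, edgeR adjusted *P* = 7.37e-17). *CTGF* had at most 3 counts per CSS library and reached 1.06, 1.20, 3.67, and 3.89 CPM with NRG-1, at least 66.0-fold above the floor, with the batch 2 libraries above those of batch 1 (adjusted *P* = 1.38e-12). *FHL2* rose by 3.03 ± 0.28, also higher in batch 2, at 1.10, 0.929, 2.28, and 2.48 CPM against 0.157, 0.158, 0.210, and 0.279 CPM. Structural genes that were already abundant rose as well, namely *ACTB* (0.85 ± 0.04, 2051 ± 56.9 to 3701 ± 151 CPM), *ACTG1* (0.69 ± 0.04), *TPM4* (1.49 ± 0.08), *ZYX* (1.42 ± 0.07), and *VCL* (0.42 ± 0.12). *AJUBA* fell (-0.21 ± 0.05), a call that was lost without any of 3 libraries, that is replicate 2 of batch 1 in either group or the NRG-1 library of batch 2 replicate 2. Of 13 ephrins and Eph receptors, only *EPHA2* rose (0.94 ± 0.10, adjusted *P* = 2.11e-08).

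A few genes named for their induction by neuronal activity were raised in these prostate cells. Of 9 tested, 3 rose: *ARC*, a postsynaptic protein, from 0.157, 0.10, 0.144, and 0.109 to 3.40, 2.80, 4.67, and 4.12 CPM (log2 fold change 4.85 ± 0.28, edgeR adjusted *P* = 5.76e-14), the neuropeptide precursor *VGF* from 0.909 ± 0.163 to 5.28 ± 0.343 CPM (2.53 ± 0.19), and *RGS2*, which limits G protein signaling, by 1.72 ± 0.22.

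Among lower DEGs whose log2 CPM averaged 1 or more, *NUAK2* and *TXNIP* fell the most. *TXNIP*, an alpha-arrestin that holds down glucose uptake and binds thioredoxin, fell from 511, 547, 388, and 408 CPM to 132, 148, 135, and 139 CPM, with no overlap although the CSS libraries differed by batch (log2 fold change -1.72 ± 0.07, edgeR adjusted *P* = 7.37e-17). The related *ARRDC3*, which directs receptors to degradation, fell from 125, 115, 117, and 142 CPM to 37.6, 48.0, 42.8, and 62.4 CPM (-1.39 ± 0.13, adjusted *P* = 2.87e-09). *ARRDC4* rose slightly (0.25 ± 0.05), and *ARRDC1* and *ARRDC2* did not pass, so the 5 alpha-arrestins had a median of 0.042. *NUAK2*, an AMPK-related kinase, fell from 8.77, 9.34, 8.17, and 6.68 CPM to 2.49, 2.47, 2.57, and 2.00 CPM (-1.78 ± 0.12, adjusted *P* = 1.05e-12). Of the other 8 AMPK-related kinases tested, *SIK1* rose (0.42 ± 0.10) and 7 did not pass. *RIMBP3* and *RIMBP3B* also fell (-1.11 ± 0.17 and -1.40 ± 0.14), but they are near-identical copies among which reads can be split, so their separate values are uncertain.

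Genes that FOXO factors control or that act in PI3K signaling went both ways, with 4 of 19 higher and 4 lower. *TRIB1*, a pseudokinase, rose from 41.1, 41.4, 29.4, and 27.3 to 202, 186, 174, and 158 CPM (log2 fold change 2.39 ± 0.07, edgeR adjusted *P* = 3.7e-20), and *CCNG2* from 140.0, 146, 156, and 162 to 315, 303, 324, and 367 CPM (1.12 ± 0.07, adjusted *P* = 1.05e-12). *BCL6* (0.76 ± 0.08) and *IRS2* (0.47 ± 0.13) rose, and *CITED2* (-0.56 ± 0.08), *PIK3R1* (-0.55 ± 0.06), *SESN1* (-0.48 ± 0.11), and *PIK3IP1* (-0.39 ± 0.09) fell. *FOXO1*, *FOXO3*, and *FOXO4* did not pass.

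In the BCL2 family, 4 of 15 genes rose and 1 fell. *MCL1*, a short-lived protein that prevents apoptosis, went from 269, 296, 286, and 278 CPM to 801, 773, 696, and 650.4 CPM (log2 fold change 1.37 ± 0.07, edgeR adjusted *P* = 8.06e-15). The other rises were in the death-promoting BH3-only genes *PMAIP1* (0.67 ± 0.15), *BIK* (0.41 ± 0.12), and *BBC3* (0.38 ± 0.11), and the fall was in *BMF* (-0.42 ± 0.11, adjusted *P* = 0.0146), another of that class. Only 2 rises remained without the NRG-1 library of batch 1 replicate 2 or the CSS library of batch 2 replicate 2, and the fall of *BMF* was lost without the CSS library of batch 2 replicate 1 or the NRG-1 library of batch 2 replicate 2.

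Cell cycle genes showed little change at 1 hour. Of 17 DNA replication and G1/S genes and 15 mitotic genes, edgeR and DESeq2 called 0 at an adjusted *P* below 0.05. In edgeR 2 of each list had an unadjusted *P* below 0.05, beside 2889 of all 16995 genes tested. *PCNA* was 145, 136, 124, and 151 CPM in CSS and 140.3, 149, 125, and 177 CPM with NRG-1 (log2 fold change 0.09 ± 0.13, edgeR adjusted *P* = 0.809), and *CDK1* was 167, 164, 142, and 178 and 152, 156, 133, and 208 CPM (-0.01 ± 0.15, adjusted *P* = 0.991). Among D and E cyclins, CDK inhibitors, and GADD45 genes, 4 of 13 rose. These were the inhibitors *CDKN1A* (0.50 ± 0.08), *CDKN1B* (0.48 ± 0.05), and *CDKN2B* (0.56 ± 0.17) and the stress gene *GADD45B* (0.51 ± 0.10), and none lay beyond a log2 fold change of 1. The *CDKN2B* call (edgeR adjusted *P* = 0.0439) was lost in 11 of 20 alternatives, among them 6 of the 8 fits that left out 1 library (the NRG-1 or the CSS library of batch 1 replicate 1 or of batch 2 replicate 2, the CSS library of batch 1 replicate 2, or the NRG-1 library of batch 2 replicate 1). Its adjusted *P* over the 20 was 0.0050 to 0.471. *GADD45B* did not pass in batch 1 alone or with limma. *CCND1* was 304 ± 16.3 CPM in CSS and 283 ± 26.7 CPM with NRG-1 (adjusted *P* = 0.695). The 2 falls, in *CDKN2C* (-0.21 ± 0.05) and *CDKN2D* (-0.20 ± 0.05), were small, and both calls were lost without the CSS library of batch 1 replicate 2 or the NRG-1 library of batch 2 replicate 2.

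Metabolic and stress genes moved mostly by less than the fold limit. *DNAJB1*, a co-chaperone, rose by more. Of 16 cholesterol genes tested 3 rose, among them *INSIG1* (0.43 ± 0.08). Of 18 genes of glucose uptake and glycolysis, *PFKFB3* (0.90 ± 0.12) and *SLC2A1* (0.45 ± 0.06) rose and 16 did not pass. In polyamine metabolism 3 of 10 rose, among them the decarboxylases *AMD1* (0.71 ± 0.12) and *ODC1* (0.27 ± 0.05). Of 17 ribosome biogenesis genes 4 rose, each by 0.35 or less on the log2 scale. Of 16 ATF4 targets 6 rose, led by *CHAC1* (0.77 ± 0.13), and *VLDLR* fell (-0.26 ± 0.07), a call lost when any 1 of 3 libraries was left out (CSS batch 1 replicate 1, NRG-1 batch 1 replicate 2, or NRG-1 batch 2 replicate 2). Of 12 heat shock genes 4 rose, with *DNAJB1* going from 129.8, 123, 119, and 121 CPM to 311, 302, 216, and 236 CPM (1.10 ± 0.08, adjusted *P* = 3.06e-11). Among 14 interferon-stimulated genes, *ISG15* rose (0.41 ± 0.09) and *IFIT2* fell (-0.41 ± 0.09).

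Androgen-responsive and luminal genes were largely level at this time. Of 20 androgen-responsive genes, *CENPN* rose (0.33 ± 0.06), 1 fell, and 18 did not pass, with a median log2 fold change of 0.024. *KLK3*, which encodes PSA, was 163, 209.5, 241, and 262 CPM in CSS and 176, 214, 261, and 266 CPM with NRG-1 (log2 fold change 0.07 ± 0.11, edgeR adjusted *P* = 0.83), and *KLK2* was 13.2, 18.4, 13.1, and 13.7 and 14.3, 18.0, 14.5, and 14.2 CPM (0.07 ± 0.11, adjusted *P* = 0.842). The luminal keratins *KRT8* (0.53 ± 0.07) and *KRT18* (0.50 ± 0.06) rose.

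Genes whose symbol is ZNF and a number, most of which encode zinc finger repressors, formed the longest list and held more falls than rises: of 453 tested, 71 fell and 35 rose, with a median log2 fold change of -0.066. In this list 23.4% passed, beside 6.73% of all genes tested, of which 2.28% fell and 4.45% rose. Changes were small, since 2 fell and 1 rose by more than the fold limit. *ZNF792* went from 6.60, 6.75, 6.16, and 6.17 CPM to 2.98, 2.60, 4.05, and 2.94 CPM (log2 fold change -1.03 ± 0.12, edgeR adjusted *P* = 3.2e-07), and *ZNF812* rose by 1.25 ± 0.18. *ZNF835*, which averaged 0.086 CPM in CSS and 0.0119 CPM with NRG-1, is too sparse for its size to be read, and its call was lost without the CSS library of batch 2 replicate 2. The split depended on the fit: 111 fell and 66 rose with the replicate number as a block, 38 and 27 with no batch term, 39 and 40 in batch 1 alone, and 4 and 5 in batch 2 alone.

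**Figure D3:**
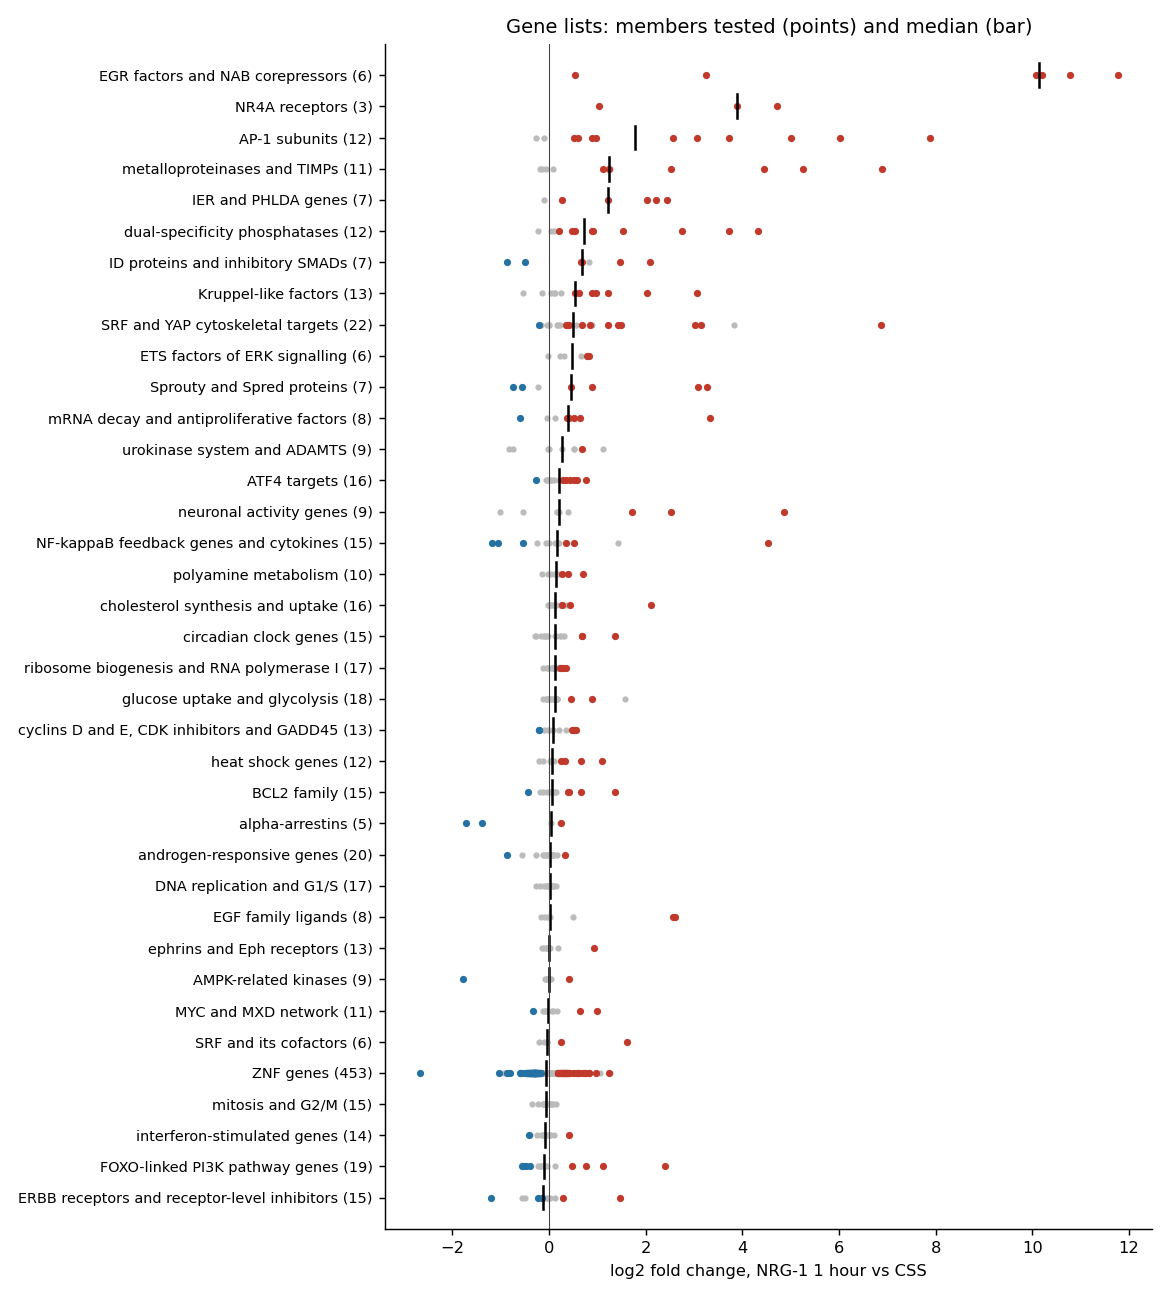
Each row is a gene list with the number of members tested in parentheses, each point is the log2 fold change of 1 member (NRG-1 for 1 hour against CSS), colored where its adjusted *P* value was below 0.05 (red higher, blue lower, grey not passed), and each bar is the list's median. The EGR, NR4A, and AP-1 lists lie farthest to the right, with medians of 10.14, 3.88, and 1.77, and the median of all genes tested was -0.0045.

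Of the 168 DEGs, 57 higher and 8 lower ones belong to the lists above, and 80 and 23 do not. The following, outside the lists, were chosen after their values were seen. Higher genes included *RASD1*, a RAS-like GTPase (3.30 ± 0.18), *SERTAD1* (3.20 ± 0.16), the Notch effector *HES1* (2.98 ± 0.12), *CSRNP1* (2.63 ± 0.10), the kinases *MAP3K14* (1.97 ± 0.09), *PLK3* (1.61 ± 0.09), and *PLK2* (1.31 ± 0.09), and *TNFRSF12A*, the receptor for TWEAK (1.83 ± 0.09). *SNAI1* (1.37 ± 0.13) and *SNAI2* (1.94 ± 0.25), repressors known from epithelial-mesenchymal transition, rose from 1.12 ± 0.290 and 0.335 ± 0.123 CPM (SD, *n* = 4) in CSS. *GDF15*, a secreted stress cytokine, was among the most abundant, going from 206, 217, 243, and 241 to 563, 568, 571, and 527 CPM (1.30 ± 0.07, edgeR adjusted *P* = 1.48e-14).

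The 1-hour libraries were then placed in time. Compared directly with NRG-1 for 5 minutes, which does not use the CSS libraries, 165 genes differed at 1 hour (0.971%), 135 higher (0.794%) and 30 lower (0.177%). Summed over the 137 higher DEGs, which were chosen on the CSS and 1-hour values, the level was 1656 ± 84.1 TPM in CSS, 1767 ± 109 TPM at 5 minutes, 6425 ± 751 TPM at 1 hour, and 3956 ± 434 TPM at 4 hours (SD, *n* = 4). The 31 lower DEGs summed to 455 ± 65.4, 457 ± 61.7, 150.3 ± 10.2, and 315 ± 33.2 TPM. Between 1 and 4 hours, 1154 genes (6.79%) were called, 768 of them higher at the later time (4.52%) and 386 lower (2.27%).

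Individual genes followed different courses. *EGR1* averaged 4.39 ± 1.55 CPM at 5 minutes, 1352 ± 257 CPM at 1 hour, and 65.7 ± 9.28 CPM at 4 hours (SD, *n* = 4; 4 hours against 1 hour -4.36 ± 0.35, edgeR adjusted *P* = 2.98e-11). *EGR4* returned to 0.0324 ± 0.0295 CPM, below the floor of 3 counts, and *EGR3* to 2.61 ± 0.479 CPM (-6.41 ± 0.14). *NR4A1* went back to 10.3 ± 0.623 CPM and *MCL1* to 265 ± 15.3 CPM (-4.45 ± 0.11 and -1.46 ± 0.07). *DUSP6* stood at 14.5 ± 0.428 CPM at 4 hours and 14.5 ± 1.09 CPM at 1 hour (0.01 ± 0.11, adjusted *P* = 0.971). *MMP10* went on rising, to 97.6 ± 24.9 CPM (2.66 ± 0.22, adjusted *P* = 4.12e-11), and so did *MMP1* (2.19 ± 0.27, adjusted *P* = 5.28e-07) and *CXCR4* (1.22 ± 0.14, adjusted *P* = 2.56e-08).

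Among genes that fell, *ARRDC3* was 141 ± 18.4 CPM at 4 hours against 125 ± 12.1 CPM in CSS. *TXNIP* rose again to 321 ± 27.0 CPM (4 hours against 1 hour 1.20 ± 0.07, edgeR adjusted *P* = 7.94e-14). The largest later rises, by the same rule, were in genes that did not pass against CSS at 1 hour: the RNA-binding protein *IGF2BP2* was 0.0488 ± 0.00506 CPM in CSS, 0.0566 ± 0.0281 CPM at 1 hour, and 7.08 ± 2.55 CPM at 4 hours, and the PEA3 factor *ETV4* was 0.0704 ± 0.0342, 0.110 ± 0.0525, and 11.0 ± 0.585 CPM. *SIPA1L2*, a RAP GTPase-activating protein, was 18.4 ± 2.68, 17.3 ± 3.45, and 475 ± 139 CPM. The pseudogene *NUDT4P1* was also called lower at 4 hours than at 1 hour, but its values at 1 hour ran from 0.0111 to 32.1 CPM, and reads can be split between it and its parent gene.

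**Figure D4:**
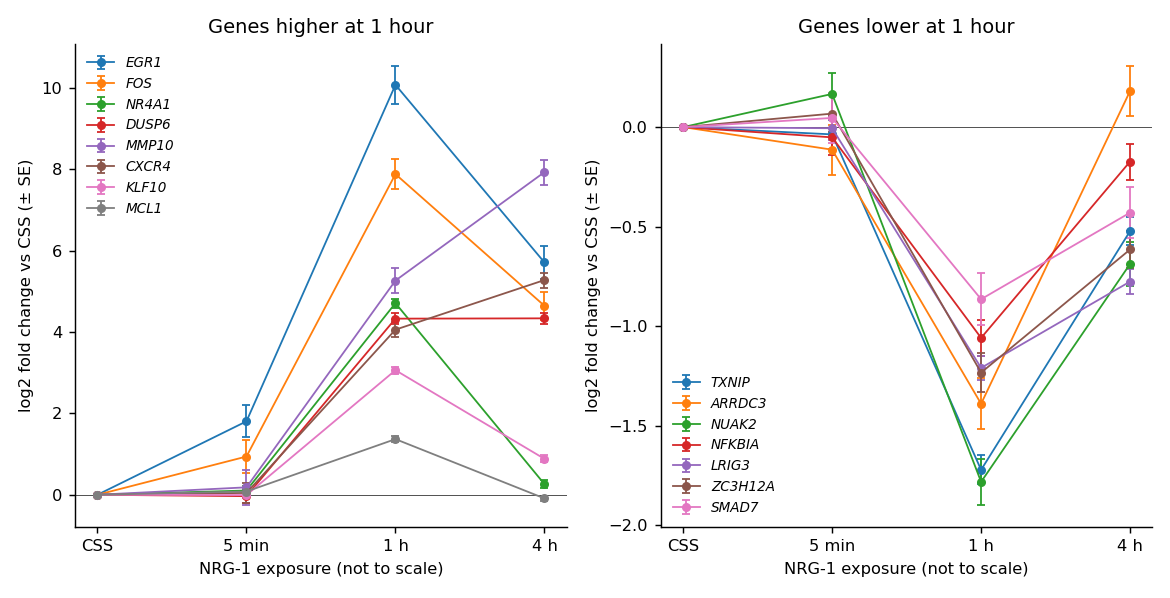
The log2 fold change against CSS (± SE) is plotted at 5 minutes, 1 hour, and 4 hours of NRG-1 for 8 genes higher (left) and 7 genes lower (right) at 1 hour, with CSS at 0 and the time axis not to scale. *EGR1*, *FOS*, *NR4A1*, *KLF10*, and *MCL1* peak at 1 hour, *MMP10* and *CXCR4* stand higher at 4 hours, and on the right all 7 come back toward CSS by 4 hours.

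Against EGF at the same dose and time, a direct test that does not use the CSS libraries, NRG-1 gave the lower level for each gene that passed both criteria: 29 genes differed (0.171%), and all 29 were lower with NRG-1. Without the fold limit 180 genes differed (1.06%), 160 lower and 20 higher with NRG-1. The count was 4 in batch 2 alone and 43 in batch 1 alone. *MMP1* was 0.905 ± 0.321 CPM with NRG-1 and 3.15 ± 0.679 CPM with EGF (log2 difference -1.78 ± 0.27, edgeR adjusted *P* = 0.000341). *FOSB* was 49.3 ± 8.24 and 149 ± 44.3 CPM (-1.59 ± 0.17, adjusted *P* = 7.16e-07), and *MMP10* was 15.0 ± 3.74 and 41.7 ± 2.56 CPM (-1.46 ± 0.21, adjusted *P* = 6.35e-05). *NR4A1* differed likewise (226 ± 30.6 against 519.6 ± 97.7 CPM, -1.20 ± 0.09, adjusted *P* = 2.26e-09), as did *ERRFI1* (96.3 ± 6.38 against 219 ± 41.5 CPM, -1.18 ± 0.07, adjusted *P* = 4.08e-11).

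Not every immediate early gene was lower with NRG-1. *EGR1* was 1352 ± 257 CPM with NRG-1 and 1316 ± 291 CPM with EGF (log2 difference 0.04 ± 0.30, edgeR adjusted *P* = 0.965), *FOS* was 145 ± 5.75 and 139.7 ± 37.0 CPM (0.03 ± 0.24, adjusted *P* = 0.973), and *DUSP6* was 14.5 ± 1.09 and 13.1 ± 0.900 CPM (0.14 ± 0.11, adjusted *P* = 0.621). The standard errors leave room for differences in either direction. In the gene lists, NRG-1 was below EGF in 6 of 12 AP-1 subunits, 3 of 6 EGR and NAB genes, 2 of 3 NR4A receptors, 4 of 11 metalloproteinases and TIMPs, and 6 of 22 cytoskeletal genes at an adjusted *P* below 0.05, beside 0.941% of all genes. Other lists with many rises held smaller shares: 2 of 12 dual-specificity phosphatases, 1 of 7 *IER* and *PHLDA* genes, and 0 of 8 mRNA decay and antiproliferative factors. Of the 137 higher DEGs, 27 differed between the ligands past both criteria. Genes that fell differed too: *TXNIP* was 139 ± 6.66 CPM with NRG-1 and 71.2 ± 12.0 CPM with EGF (0.98 ± 0.07, adjusted *P* = 8.31e-10), and *NUAK2* was 2.38 ± 0.260 and 1.29 ± 0.0727 CPM (0.89 ± 0.13, adjusted *P* = 8.76e-05). Both ligand groups are read here against DEGs that were chosen with the NRG-1 libraries. Summed over the 137 higher DEGs the level was 9488 ± 1209 TPM with EGF and 6425 ± 751 TPM with NRG-1, and over the 31 lower DEGs 109.2 ± 7.14 and 150.3 ± 10.2 TPM (SD, *n* = 4).

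**Figure D5:**
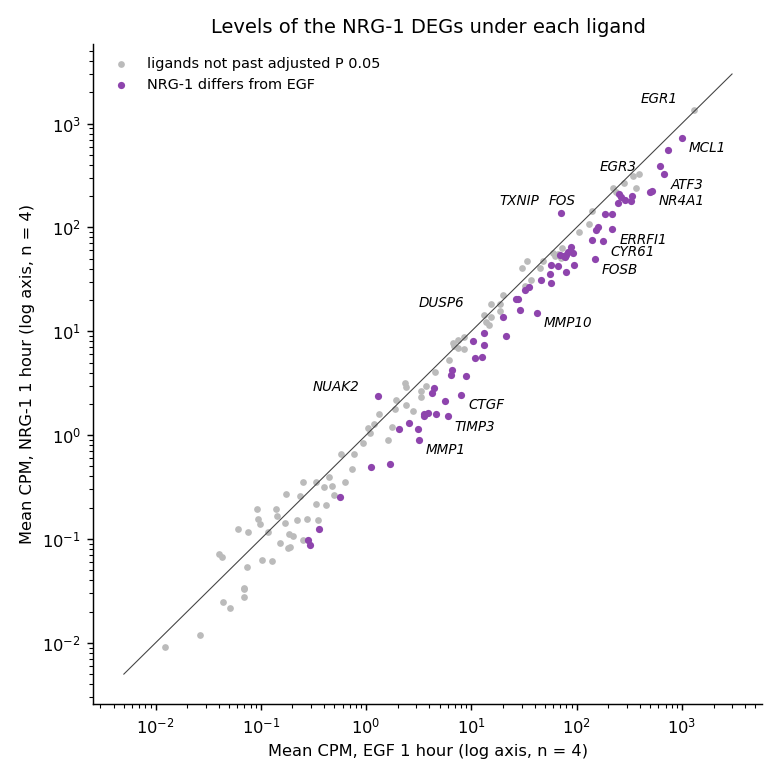
Mean CPM with NRG-1 for 1 hour (vertical) is plotted against mean CPM with EGF for 1 hour (horizontal) for each of 168 NRG-1 DEGs on log axes (*n* = 4 libraries each), with equality as a line and genes that differed between the ligands at an adjusted *P* below 0.05 in purple. *MMP1*, *CTGF*, *TIMP3*, *FOSB*, and *CYR61* lie below the line, *TXNIP* and *NUAK2* above it, and *EGR1* and *FOS* on it.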

How the data were processed

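RNA was polyA selected and libraries were strand-specific. Per the labels and methods, the authors trimmed reads with Trimmomatic 0.36 and quantified them with RSEM and STAR 2.7.0f on hg19, and deposited RSEM expected counts and TPM per gene symbol (25498 genes). The annotation version is not given in the sources used here. Of the deposited expected counts, 11.2% were not whole and were rounded. A gene was tested if 3 or more libraries had 5 or more counts (16995 genes, leaving out 8503). The genes tested held 99.997% of counts. edgeR 4.0.16 (R 4.3.3) fitted the quasi-likelihood model to all 32 libraries with TMM scaling and terms for group and batch. Contrasts gave log2 fold changes. An adjusted *P* value in the text is from this model, with Benjamini-Hochberg adjustment over all genes tested. All tests were two-sided. Values in parentheses after a gene are log2 fold changes ± SE. In edgeR each SE is the size of the log2 fold change divided by the square root of its quasi-likelihood F statistic. It was worked back from the test and is approximate. A library with no count of a gene is compared with a floor of 3 counts, which covers counting error only.

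Between the NRG-1 1-hour and CSS groups, libraries of the same batch and replicate number had correlated deviations from their group means (0.23 to 0.44 over 4 pairs). Libraries of the same batch but different replicate numbers gave 0.09 to 0.36. With 2 libraries per group and batch, removing batch means gives the 2 pairs of a batch the same value by construction. That value was -0.06 in batch 1 and 0.23 in batch 2. The other groups were not examined for this. The labels give the batch, which is a term of the model. Alternatives were DESeq2 1.42.0, limma 3.58.1 on log2(TPM + 1) and log2(TPM + 0.1), other filters and scalings, single batches, a replicate block, and leaving out each library. Tested on simulated data for NRG-1 at 1 hour against CSS (16541 genes), edgeR recovered 200 of 200 changed genes (2.5-fold or 4-fold). It called 16 unchanged genes, and limma on TPM found 187 of the 200. The simulation had no batch effect and changed only genes with counts well above the floor. Genes nearly silent in CSS were therefore not covered.

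Named genes were the 12 largest rises and 8 largest falls among DEGs whose log2 CPM averaged 1 or more and that moved alike in all 4 pairs, the up to 3 largest changes that passed in each gene list (or its most abundant member where none passed), ERBB receptors and ligands, *KLK2* and *KLK3*, and the 3 largest differences in each direction against EGF and against 4 hours. Some genes that met this rule are not reported here. Any other gene in the text was chosen after its values were seen. The gene lists and this rule were chosen with earlier results of these data known. Promoters and gene spans are from RefSeq on GRCh38.p14, matched by symbol. They were not used to read coordinates in the deposited tables.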

Additional observations from a re-analysis of the deposited data

Results flagged for a closer look

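For 121 genes named by the rule, the CSS and the NRG-1 1-hour values of 4 libraries each were screened for a single library whose gap to the nearest other exceeded Dixon's 95% critical share of the group's range. Of 240 groups screened, 12 had one, where chance gives about 12 (1 in 20). Values are in CPM. In the NRG-1 library of batch 2 replicate 2, *AMD1* was 1965 against 1324 to 1383 in the other 3, and *RNF41* was 196 against 168 to 172. In the same library *NUAK2* was 2.00 against 2.47 to 2.57, and *BAG3* was 84.6 against 99.9 to 101. The NRG-1 library of batch 2 replicate 1 held *COL1A1* at 14.8 against 9.21 to 9.90 and *CD68* at 3.93 against 3.20 to 3.31, neither of which passed between groups. The CSS library of batch 2 replicate 2 held *SAT1* at 79.4 against 69.9 to 70.4, *ETS2* at 9.60 against 10.4 to 10.5, and *ZNF835* at 0.134 against 0.0664 to 0.0726. In batch 1 replicate 2, *KLK2* stood out in both groups, at 18.4 against 13.1 to 13.7 in CSS and 18.0 against 14.2 to 14.5 with NRG-1, and *VGF* with NRG-1 was 4.77 against at least 5.396 in the others.

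*PHLDA1* had a response that differed between batches. Its log2 fold change was 1.41 larger in batch 2 (edgeR interaction term, adjusted *P* = 4.17e-05), and it was higher with NRG-1 in 4 of 4 pairs. The batches differed in CSS (2.87 and 2.91 against 1.16 and 1.21 CPM) and not visibly with NRG-1 (6.82, 7.32, 7.78, and 7.69 CPM).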

How the results depend on the processing

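Counts are given in the order DEGs, higher and lower at 1 hour against CSS, then genes that differ from EGF at 1 hour, between 4 hours and 1 hour, and between 1 hour and 5 minutes. As reported they were 168, 137, 31, 29, 1154, and 165. Without the fold limit they were 1144, 756, 388, 180, 6374, and 1067. With at least 10 counts in every library, which removes genes silent in CSS, they were 105, 91, 14, 13, 563, and 98, and 3 genes rather than 1 had a batch interaction. With limma on log2(TPM + 1) they were 78, 71, 7, 18, 310, and 73, without the TPM filter 77, 70, 7, 18, 309, and 73, and on log2(TPM + 0.1) DEGs were 106, lower DEGs 12, and the last 2 counts 507 and 98. A pseudocount shrinks the fold of low genes by construction. Batch 2 alone (fewer libraries) gave 12 lower DEGs, 4 genes against EGF, and 732 between 4 hours and 1 hour. Leaving out 1 library at a time, in fits that pool the spread over groups, gave 156 to 175 DEGs, 132 to 141 higher, 20 to 40 lower, 22 to 30 against EGF, 1051 to 1185 between 4 hours and 1 hour, and 144 to 170 against 5 minutes. The low of 20 was without the NRG-1 library of batch 2 replicate 2, and the cause was not tested. The other counts under these and the remaining alternatives stayed within 1.5 times, DESeq2 giving 166 DEGs.

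With the replicate number as a block within batch, the counts were 181, 143, 38, 36, 1173, and 187, and the block changed no call of a named gene, although it moved the ZNF counts to 66 higher and 111 lower. No named gene changed direction with a call under any alternative run. Of 101 that passed, 68 passed in every alternative that tested them. The other 33 were lost in at least 1, 31 of these in batch 2 alone. Filters left some low genes, *EGR2*, *EGR3*, and *EGR4* among them, out of at least 1 alternative. Of 857 list medians recomputed, 140 moved by more than the spread between pairs. Depth limits most the genes with no more than 3 counts in any CSS library, which are 16 of the 137 higher and 0 of the 31 lower DEGs. Averages under 1 CPM in CSS were found for 63 of the higher and 19 of the lower.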
